A study of Mus with 18 samples.

Results

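The genes described here are 10 transcription factors of the activator protein 1 (AP-1) and immediate-early groups, out of 21401 gene symbols in each of the 2 deposited tables. They were chosen by symbol and comprise the 4 Fos family genes Fos, Fosb, Fosl1 and Fosl2, the 3 Jun family genes Jun, Junb and Jund, and Egr1, Maff and Myc. All 10 were found in the table labelled as the C2C12 mouse myoblast line and in that of mouse gastrocnemius, a muscle of the calf. By their labels, the wild type C2C12 cultures included control cells given vehicle and cells given lipopolysaccharide (LPS) at 1 μg/mL. LPS is an endotoxin of the outer membrane of bacteria. Other cells were given LPS at 1 μg/mL together with moringa isothiocyanate-1 (MIC-1, from the seeds of Moringa oleifera) for 24 h. The control and LPS libraries lacked the defining markers of the labelled line, as described below. The labels put MIC-1 at 10 μM in culture, and the paper's text gives another concentration. The wild type C57BL/6 male mice, whose age is not given in the sources used here, received vehicle, an intraperitoneal injection of LPS at 10 mg/kg, or that injection after MIC-1 at 80 mg/kg by gavage on each of 3 days in 10% DMSO. Their muscles were taken 16 h after LPS. Each group had 3 libraries, 18 in all, and no group received MIC-1 without LPS. The labels do not say which libraries came from separate cultures or mice, so p-values measure the spread between libraries, which may be technical.

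AP-1 is a dimer of basic leucine zipper proteins. A Jun protein pairs with a Fos protein or with another Jun, and the pair binds a short palindromic site in the promoters and enhancers of many genes for inflammation, matrix breakdown and growth. Fos, Fosb, Egr1 and Junb are classical immediate-early genes, which growth factors, stress and bacterial products switch on through MAP kinases without new protein synthesis, whereas Fosl1 (Fra-1) and Fosl2 (Fra-2) typically follow later. Maff is a small Maf protein that lacks a transactivation domain, and Myc is a basic helix-loop-helix leucine zipper factor that pairs with Max and acts on genes of growth and ribosome assembly.

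The values are FPKM, that is, fragments counted per length of transcript and scaled per library. Levels of different genes can therefore be set side by side within an experiment. The median over genes of a library's values relative to their geometric mean over libraries was the same in all 9 libraries of an experiment. This median-ratio factor was 1.02 in C2C12 and 1.01 in muscle. Values already scaled by median ratios would give this, and a scaling to mapped fragments alone would not. Reads per library are not given in the sources used here, and the precision of values near 0 is therefore unknown. Differences are on the scale of log2(FPKM + 0.1) with their standard error (SE) from limma, fitted over all genes with a mean above 1 FPKM (10877 in C2C12 and 9475 in muscle) and adjusted by Benjamini-Hochberg over all of them. A gene was called where the absolute difference was over 1 and the adjusted p was below the threshold of the experiment, which was 0.001 for C2C12 and 0.05 for muscle. A 2-sided exact permutation test of 3 libraries against 3 cannot go below p = 0.1, and it gave 0.1 for every member whose groups did not overlap.

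Marker genes of cell types were read before the members. In the libraries labelled C2C12 control, 10 myoblast markers summed to 1.08 to 1.52 FPKM, with Myf5, Pax7, Myog and Msc at 0, while the 16 macrophage markers found (of 18) summed to 10138 to 10186 FPKM, 13 of them above a mean of 1 FPKM. Those labelled LPS had 2.43 to 4.58 FPKM of myoblast and 7168 to 7350 FPKM of macrophage markers. In the LPS-MIC-1 libraries the order was the opposite, with 1078 to 1374 FPKM of myoblast markers and 80.0 to 277 FPKM of macrophage markers, the highest in replicate 1. Of the 16 macrophage markers, 10 were still above a mean of 1 FPKM there, and Aif1 and C1qa were at 0. The control and LPS libraries thus lacked the defining markers of the labelled line. Groups are named below by their labels, and in each comparison of LPS-MIC-1 with the others, the treatment and this change of markers cannot be told apart. In muscle, 15 fibre markers summed to between 232575 and 326323 FPKM in all 9 libraries. LPS-MIC-1 replicate 3 stood apart there, with 202 FPKM of macrophage markers against 47.0 and 45.4 FPKM in replicates 1 and 2. Control had 25.9 to 31.35 FPKM of these markers and LPS 41.4 to 43.3 FPKM. In such bulk samples, fewer cells of a type and less RNA per cell cannot be told apart.

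**Figure D1:**
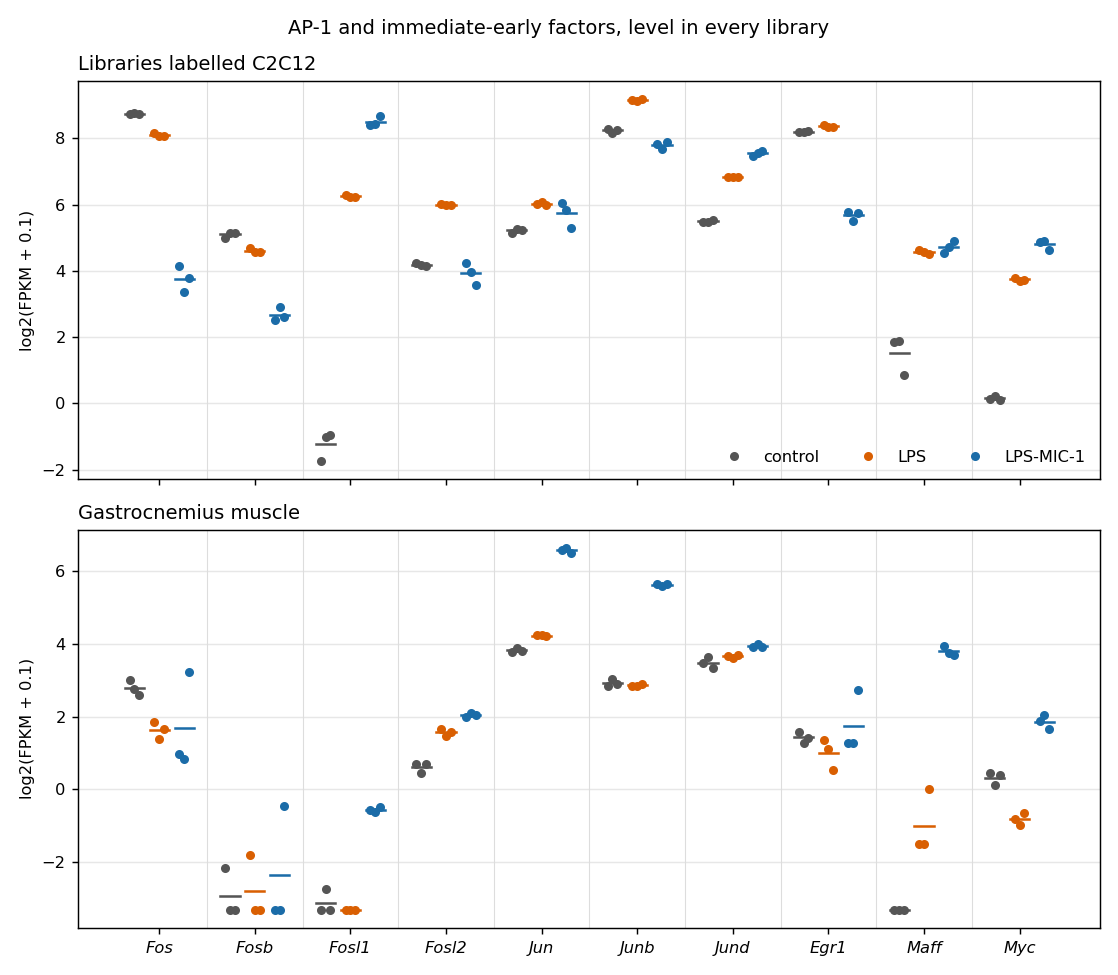
Level of each of the 10 genes in every library, as log2(FPKM + 0.1), with control in grey, LPS in orange and LPS-MIC-1 in blue (bars are group means, n = 3 libraries). In the upper panel Fos is highest in control and Fosl1 in LPS-MIC-1. In the lower panel the LPS-MIC-1 libraries lie above control and LPS of the same gene for Fosl1, Fosl2, Jun, Junb, Jund, Maff and Myc.

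In the libraries labelled C2C12, the Fos family gene with the highest level was Fos in control and LPS and Fosl1 in LPS-MIC-1. Fos, the founding member, had 430.0, 433 and 428 FPKM in control, 286, 269 and 269 FPKM in LPS, and 17.7, 10.1 and 13.7 FPKM in LPS-MIC-1. The 3 groups did not overlap and stepped down in that order. Fos fell by 4.33 (SE 0.170, adjusted p = 7.92e-08) from LPS to LPS-MIC-1, with 19.8 times more FPKM in LPS. Its difference between LPS and control was -0.65 (SE 0.170, adjusted p = 0.0101) and was not called.

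Fosl1 encodes a Fos-related protein without the transactivation domain of Fos. It ran the other way, with 0.198, 0.391 and 0.418 FPKM in control, 78.5, 75.6 and 74.4 FPKM in LPS, and 335, 345 and 413 FPKM in LPS-MIC-1. Control was thus near 0 and every LPS-MIC-1 library was above every LPS library. Fosl1 rose by 7.49 (SE 0.199, adjusted p = 6.03e-08) in LPS against control, between 5.86 and 7.85 under the alternative settings, and by 2.25 (SE 0.199, adjusted p = 1.01e-05) from LPS to LPS-MIC-1. As a ratio of mean FPKM, LPS-MIC-1 was 4.78 times LPS.

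Fosl2, the other Fos-related antigen, peaked in LPS. Its values were 18.6, 18.0 and 17.7 FPKM in control, 64.7, 63.0 and 63.5 FPKM in LPS, and 18.7, 15.4 and 11.8 FPKM in LPS-MIC-1. The LPS libraries lay 3.52 times above control by mean FPKM (difference 1.81, SE 0.143, adjusted p = 1.28e-05) and 4.17 times above LPS-MIC-1 (difference of LPS-MIC-1 minus LPS -2.08, SE 0.143, adjusted p = 2.11e-06), while control and LPS-MIC-1 overlapped. Fosb, whose short form lacks the transactivation domain, followed Fos at a lower level. It had 32.0, 35.3 and 35.5 FPKM in control, 25.4, 23.7 and 23.8 FPKM in LPS, and 5.57, 7.40 and 5.97 FPKM in LPS-MIC-1. Fosb fell by 1.94 (SE 0.105, adjusted p = 4.75e-07) from LPS to LPS-MIC-1, and its difference of -0.49 (adjusted p = 0.00352) in LPS against control was not called.

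As shares of the summed family FPKM, which cancel any scaling of a library, Fos made up 89.1% ± 0.294 (SD, n = 3) of the control Fos family, 62.6% ± 0.273 of that of LPS and 3.49% ± 1.07 of that of LPS-MIC-1. Fosl1 went from 0.0694% ± 0.0247 to 17.3% ± 0.136 and 91.0% ± 2.04 in the same order. Fosl2 made up 3.75% ± 0.109, 14.5% ± 0.265 and 3.90% ± 1.17. The sum of the 4 genes changed far less than its make-up, at 483 ± 3.23 FPKM for control, 439 ± 13.4 for LPS and 399.7 ± 38.7 for LPS-MIC-1. The summed Fos family was 1.26 ± 0.0481 times the summed Jun family for control, 0.584 ± 0.0180 times for LPS and 0.859 ± 0.0739 times for LPS-MIC-1.

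**Figure D2:**
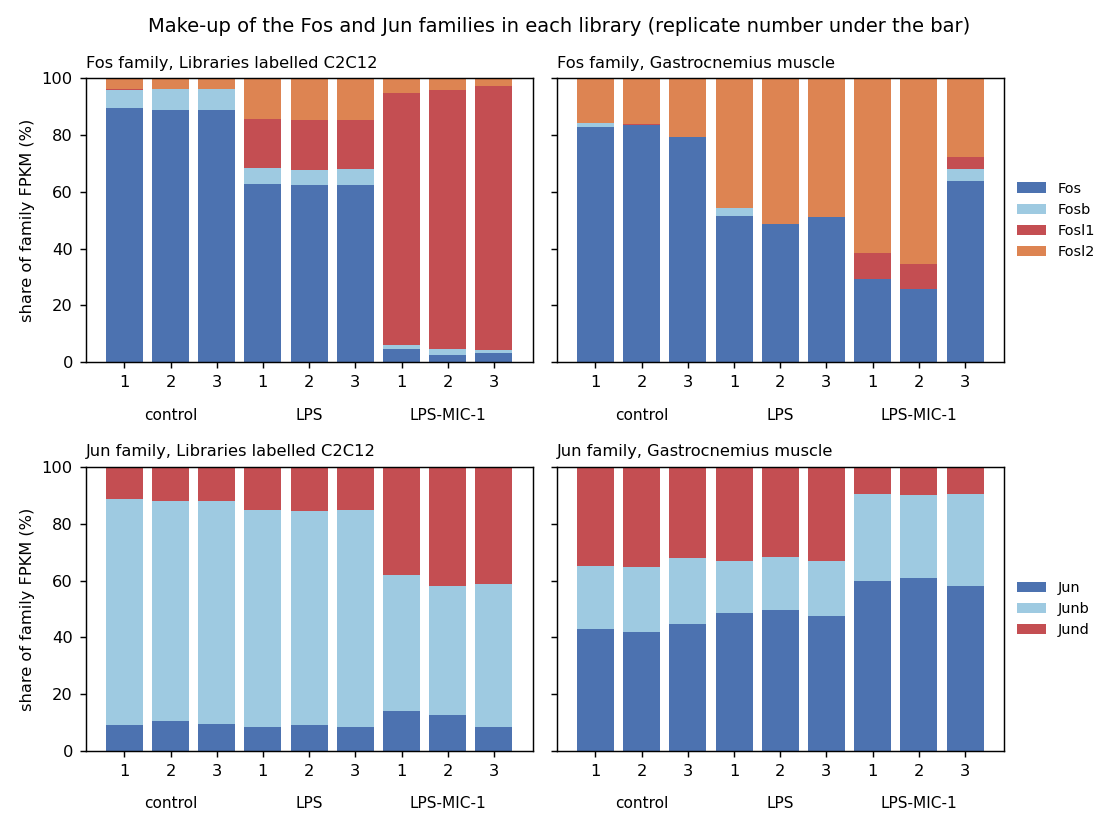
Share of each gene in the summed FPKM of the Fos family (upper row) and the Jun family (lower row), 1 bar per library with its replicate number. Fosl1 fills 88.9 to 92.9% of the Fos family in the C2C12 LPS-MIC-1 libraries, and in muscle LPS-MIC-1 replicate 3 differs from replicates 1 and 2 in its Fos share.

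Of the Jun family in C2C12, Junb peaked in LPS and Jund stepped up through all 3 groups. Junb, a weaker activator than Jun, had 312, 288 and 307 FPKM in control, 575, 561 and 582 FPKM in LPS, and 226, 205 and 237 FPKM in LPS-MIC-1. No groups overlapped. Junb fell by 1.36 (SE 0.0619, adjusted p = 1.74e-07) from LPS to LPS-MIC-1. Its difference in LPS against control, 0.92 (SE 0.0619, adjusted p = 5.24e-06), lay under the fold minimum and was not called. Under the alternative settings this difference was between 0.577 and 0.943.

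Jund, the member that resting cells typically keep, had 44.2, 44.3 and 46.7 FPKM in control, 115, 114 and 114 FPKM in LPS, and 178, 189.6 and 195 FPKM in LPS-MIC-1. It rose by 1.34 (SE 0.0438, adjusted p = 1.40e-07) in LPS and stood 2.05 (SE 0.0438, adjusted p = 4.53e-09) above control in LPS-MIC-1. Its step from LPS to LPS-MIC-1, 0.71 (adjusted p = 1.02e-06), was under the fold minimum, and lay between 0.325 and 0.750 under the alternative settings. Jun, the partner through which Fos proteins bind most strongly, had no call in any comparison, with 35.5, 38.5 and 37.4 FPKM in control, 64.1, 67.1 and 63.6 FPKM in LPS, and 66.2, 57.6 and 39.2 FPKM in LPS-MIC-1. LPS lay above control (difference 0.80, SE 0.167, adjusted p = 0.00318) without a call. LPS-MIC-1 overlapped LPS, and replicate 3 was its lowest library. Junb made up 78.6% ± 0.990 (SD, n = 3) of the control Jun family, 76.2% ± 0.519 of that of LPS and 47.9% ± 2.52 of that of LPS-MIC-1, and Jund 11.7% ± 0.373, 15.2% ± 0.183 and 40.4% ± 2.19.

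Outside AP-1, Egr1 was low in the LPS-MIC-1 libraries and Myc was highest there. Egr1, a zinc finger immediate-early factor, had 294, 294 and 297 FPKM in control, 336, 324 and 327 FPKM in LPS, and 55.0, 45.3 and 53.1 FPKM in LPS-MIC-1. It fell by 2.69 (SE 0.0689, adjusted p = 1.06e-08) from LPS to LPS-MIC-1. LPS against control gave 0.15 (SE 0.0689, adjusted p = 0.0833), which turned to -0.056 under quantile normalization. Myc had 0.992, 1.07 and 0.970 FPKM in control, 13.8, 12.9 and 13.0 FPKM in LPS, and 29.1, 29.6 and 24.7 FPKM in LPS-MIC-1. The 3 groups were apart, and Myc rose by 3.59 (SE 0.0901, adjusted p = 5.06e-08) in LPS and by a further 1.06 (SE 0.0901, adjusted p = 8.09e-06) in LPS-MIC-1. Maff had 3.53, 3.60 and 1.70 FPKM in control, 24.4, 23.8 and 22.5 FPKM in LPS, and 23.1, 26.1 and 30.1 FPKM in LPS-MIC-1. It rose by 3.03 (SE 0.263, adjusted p = 2.17e-05) in LPS, and the LPS and LPS-MIC-1 libraries overlapped (difference 0.16, SE 0.263, adjusted p = 0.594).

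By comparison, 5 of the 10 members (Fosl1, Fosl2, Jund, Maff and Myc) were called higher in C2C12 LPS against control, where 10.9% of all tested genes were (20.9% in either direction). None was called lower, against a background of 10.0%, and 2, Fos and Fosb, were lower at an unadjusted p under 0.05 in limma. All 10 members had groups that did not overlap, as did 79.4% of all tested genes. The median difference of the members was 1.13, and that of all tested genes 0.00. In LPS-MIC-1 against LPS, 2 were called higher (background 24.3%) and 5 lower (background 25.6%), a total of 7 of 10 where 49.9% of all genes were called. The groups of 8 members did not overlap there, against 85.5% of all genes. The median was -0.83 for the members and -0.05 for all tested genes. In LPS-MIC-1 against control, 4 (Fosl1, Jund, Maff and Myc) were higher and 3 (Fos, Fosb and Egr1) lower, with backgrounds of 21.1% and 22.1% (43.3% in either direction), and the groups of 9 did not overlap, against 83.0% of all genes. Since these comparisons share libraries, their counts are not separate evidence.

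**Figure D3:**
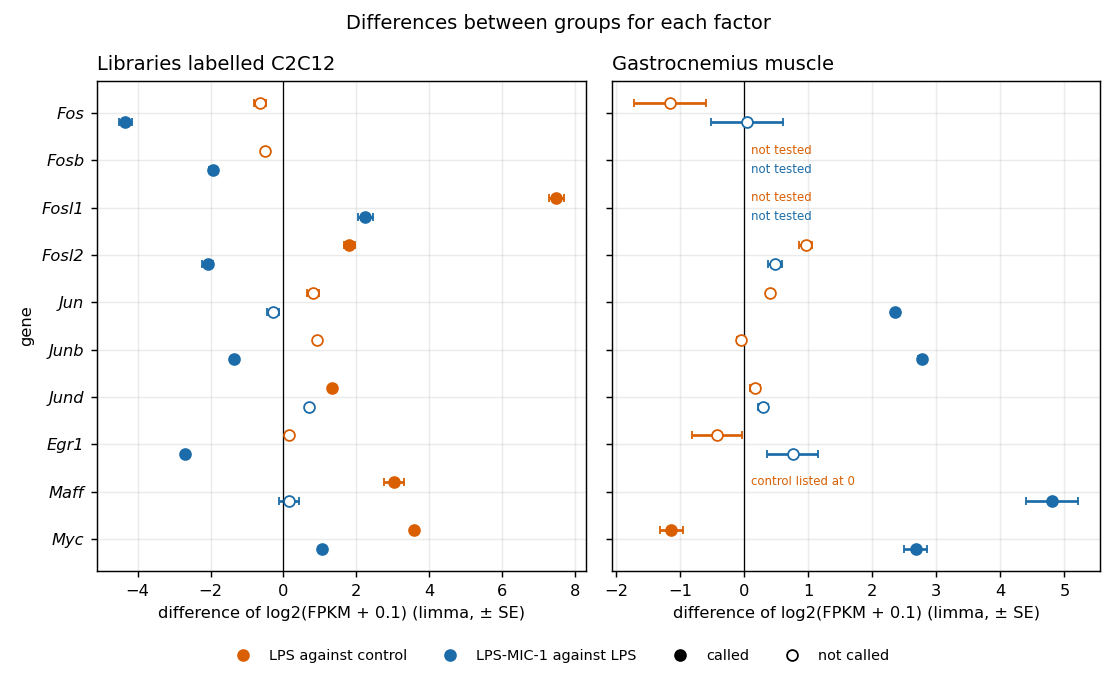
Difference of log2(FPKM + 0.1) for each gene with its SE from limma, LPS against control in orange and LPS-MIC-1 against LPS in blue (filled, called; open, not called). Fosb and Fosl1 were not tested in muscle, Maff was tested there only through its high LPS-MIC-1 values, and it has no fold against muscle control, where it is listed at 0.

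The order of levels in C2C12 differed between the groups. In control it ran Fos, Junb, Egr1, Jund, Jun, Fosb, Fosl2, Maff, Myc and Fosl1, and of the neighbours in that order the libraries overlapped for Junb and Egr1. In LPS it was Junb, Egr1, Fos, Jund, Fosl1, Jun, Fosl2, Fosb, Maff and Myc, with overlaps between Jun and Fosl2 and between Fosb and Maff. In LPS-MIC-1, Fosl1 came first, then Junb, Jund, Jun, Egr1, Myc, Maff, Fosl2, Fos and Fosb. There the pairs Jun and Egr1, Myc and Maff, and Fosl2 and Fos overlapped.

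In muscle, Jun had the highest level of the members in every group, and Jun and Junb both rose in LPS-MIC-1. The table was normalized apart from that of C2C12, and no test was made between them. Jun had 13.6, 14.7 and 14.0 FPKM in control, 18.7, 18.9 and 18.4 FPKM in LPS, and 96.5, 100.2 and 90.5 FPKM in LPS-MIC-1. Every LPS-MIC-1 library lay far above the other 6. Jun rose by 2.35 (SE 0.0483, adjusted p = 4.41e-09) from LPS to LPS-MIC-1, 5.13 times by mean FPKM. LPS also lay above control without overlap, by 0.40 (SE 0.0483, adjusted p = 0.00108), under the fold minimum.

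Junb in muscle had 7.03, 8.09 and 7.29 FPKM in control, 7.09, 7.12 and 7.35 FPKM in LPS, and 49.9, 48.5 and 50.3 FPKM in LPS-MIC-1. Control and LPS overlapped (difference -0.05, SE 0.0572, adjusted p = 0.593, with a sign that turned when control replicate 2 was left out). Junb rose by 2.77 (SE 0.0572, adjusted p = 4.51e-09) from LPS to LPS-MIC-1, 6.90 times by mean FPKM. Jund had 11.0, 12.4 and 10.0 FPKM in control, 12.7, 12.1 and 12.8 FPKM in LPS, and 15.0, 16.0 and 15.0 FPKM in LPS-MIC-1. Between LPS-MIC-1 and LPS, Jund differed by 0.29 (SE 0.0752, adjusted p = 0.0104), under the fold minimum. The Jun family summed to 32.7 ± 2.14 FPKM (SD, n = 3) for control, 38.4 ± 0.236 for LPS and 160.7 ± 4.47 for LPS-MIC-1, and Jund made up 32.6% ± 0.794 of it for LPS and 9.55% ± 0.214 for LPS-MIC-1.

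Myc was also called higher in muscle LPS-MIC-1, as was Maff, which was tested only through that group. The 3 control libraries list Maff at 0, and it had 0.250, 0.251 and 0.908 FPKM in LPS and 15.2, 13.4 and 12.9 FPKM in LPS-MIC-1. The groups did not overlap. Maff passed the filter on low values only through LPS-MIC-1, so that its inclusion already required a difference. Its difference of 4.80 (SE 0.410) between LPS-MIC-1 and LPS, from LPS values under 1 FPKM, is therefore given as a description. LPS against control was called (adjusted p = 0.00697), without a fold against 0, and that call was lost with a pseudocount of 1 (adjusted p = 0.0641).

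Myc in muscle had 1.26, 0.991 and 1.20 FPKM in control, 0.469, 0.404 and 0.532 FPKM in LPS, and 3.56, 4.04 and 3.05 FPKM in LPS-MIC-1. The LPS libraries were the lowest and the LPS-MIC-1 libraries the highest, with no overlap. Myc fell by 1.14 (SE 0.180, adjusted p = 0.00401) in LPS against control, and the difference was -0.55 with a pseudocount of 1, where it was not called. It rose by 2.68 (SE 0.180, adjusted p = 4.71e-06) from LPS to LPS-MIC-1 and stood 1.54 (SE 0.180, adjusted p = 1.27e-04) above control.

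Among the Fos family in muscle, Fosl2 stepped up and Fos depended on 1 library. Fosl2 had 1.52, 1.27 and 1.52 FPKM in control, 3.08, 2.67 and 2.89 FPKM in LPS, and 3.85, 4.21 and 4.05 FPKM in LPS-MIC-1, without overlap. It was called in LPS-MIC-1 against control (difference 1.43, SE 0.106, adjusted p = 8.06e-06). The step from control to LPS was 0.96 (SE 0.106, adjusted p = 7.04e-04), just under the fold minimum, and that from LPS to LPS-MIC-1 was 0.47 (adjusted p = 0.00500). Fosl1 was listed at 0, 0.0482 and 0 FPKM in control and at 0 in all LPS libraries, and had 0.573, 0.551 and 0.610 FPKM in LPS-MIC-1. Its 3 LPS-MIC-1 values were close together and above the other 6, but the gene did not reach a mean of 1 FPKM and was not tested. Fosb was also under that filter, at 0.122, 0 and 0 FPKM in control, 0.185, 0 and 0 FPKM in LPS, and 0, 0 and 0.625 FPKM in LPS-MIC-1.

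Fos in muscle had 7.996, 6.65 and 5.88 FPKM in control, 3.47, 2.52 and 3.03 FPKM in LPS, and 1.84, 1.67 and 9.29 FPKM in LPS-MIC-1. The LPS libraries lay below control, and LPS-MIC-1 held both the lowest values and the highest. Over all 9 libraries no comparison of Fos was called. LPS against control gave -1.16 (SE 0.564, adjusted p = 0.213) and LPS-MIC-1 against LPS 0.05 (SE 0.564, adjusted p = 0.952). Without LPS-MIC-1 replicate 3, Fos fell by 1.16 in LPS against control (adjusted p = 0.00276) and by 1.89 in LPS-MIC-1 against control (adjusted p = 8.26e-05), and LPS-MIC-1 against LPS turned to -0.73 (adjusted p = 0.00915, under the fold minimum).

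Egr1 in muscle had 2.90, 2.33 and 2.56 FPKM in control, 2.46, 2.03 and 1.35 FPKM in LPS, and 2.30, 2.30 and 6.53 FPKM in LPS-MIC-1. All groups overlapped, and neither LPS against control (-0.43, SE 0.394, adjusted p = 0.519) nor LPS-MIC-1 against LPS (0.75, SE 0.394, adjusted p = 0.137) was called. The same library, LPS-MIC-1 replicate 3, thus held the highest Fos, Fosb and Egr1 values of the 9. It also had 0.688 FPKM of Egr2, a relative of Egr1 that was listed at 0 in replicates 1 and 2, and 78.3 FPKM of the macrophage gene Lyz2 against 5.27 and 3.93 FPKM in them. The part of these markers in the Fos, Fosb and Egr1 values was not tested. In contrast, replicate 3 had the lowest LPS-MIC-1 values of Jun, Maff and Myc, at 90.5, 12.9 and 3.05 FPKM. It had the highest of Junb, at 50.3 FPKM. For these genes its distance to replicates 1 and 2 was small beside that for Fos and Egr1. Fos made up 29.4% and 26.0% of the Fos family in replicates 1 and 2 and 63.8% in replicate 3, against 82.0% ± 2.17 (SD, n = 3) in control and 50.4% ± 1.64 in LPS.

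**Figure D4:**
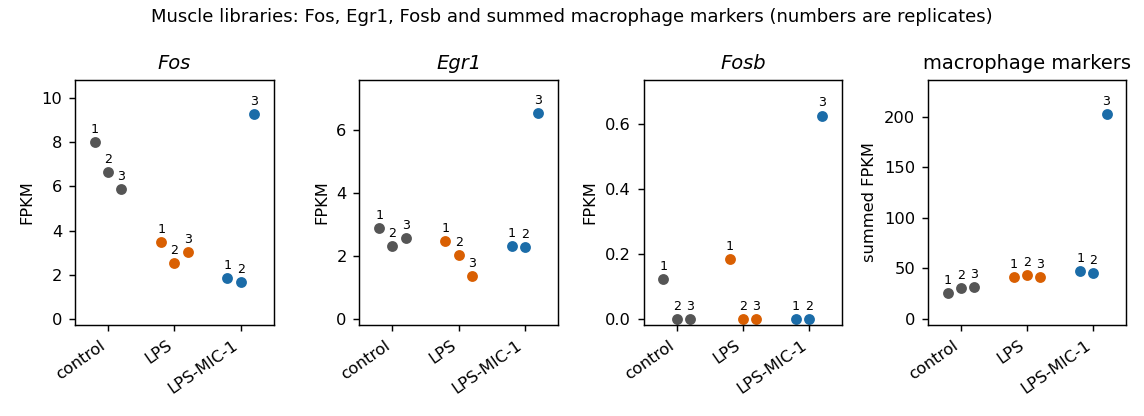
FPKM of Fos, Egr1 and Fosb and the summed FPKM of the 16 macrophage markers in the 9 muscle libraries, with the replicate number at each point. LPS-MIC-1 replicate 3 is the highest library in all 4 panels, at 9.29, 6.53, 0.625 and 202 FPKM.

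Of the 8 members tested in muscle, 1 (Maff) was called higher and 1 (Myc) lower in LPS against control, where 0.654% and 0.591% of all tested genes were (1.25% in either direction). The groups of 5 did not overlap, against 36.5% of all tested genes. The median difference was 0.06 for the members and 0.01 for all tested genes, and without Maff it was -0.05. Maff was tested only through LPS-MIC-1. Without the genes that passed the filter through a single group, 0 of 7 members were called higher and 1 lower. The shares over all genes left were 0.577% and 0.501%. In LPS-MIC-1 against LPS, 4 (Jun, Junb, Maff and Myc) were called higher, against 9.67% of all tested genes (15.1% in either direction). None was called lower (background 5.44%), and none had an unadjusted p under 0.05 with a lower value in limma. Groups did not overlap for 6 of the 8, against 64.2% of all tested genes. The median was 1.55 for the members and -0.01 for all tested genes. Without the 289 genes, Maff included, that passed the filter through a single group, 3 of 7 members were called higher, against 8.18% of such genes, and the median was 0.75 against -0.03. In LPS-MIC-1 against control, 5 were called higher (Fosl2 besides these 4), where 9.33% of genes were (15.5% in either direction), and none lower (background 6.12%, 0 at an unadjusted p under 0.05), or 1 lower, Fos, without LPS-MIC-1 replicate 3. Without the genes that passed through a single group, 4 of 7 were called higher, against 7.87%. The groups of 6 did not overlap, against 64.6% of all genes. These libraries also differed in other markers. The 8 neutrophil markers found summed to 1.73 to 2.74 FPKM in control and 1.73 to 2.02 FPKM in LPS, with Csf3r, Ngp and Ltf at 0 and 1 of the 8 above a mean of 1 FPKM in both, and to 14.3 to 19.8 FPKM in LPS-MIC-1, with 5 of the 8 above it. Of 10 tested macrophage markers, 3 (Cd14, Mpeg1 and Fcer1g) were called higher in LPS-MIC-1 than in LPS, or 2 of 9 without replicate 3, with Mpeg1 lost. Cd14 and Mpeg1 had means under 1 FPKM in control and LPS. The 15 fibre markers summed to 299535 to 306127 FPKM in LPS and 232575 to 249083 FPKM in LPS-MIC-1. The 10 mesenchymal markers summed to 153 to 171 FPKM in control, 127 to 140 FPKM in LPS and 81.2 to 91.0 FPKM in LPS-MIC-1, where 4 of 10 were called lower than in LPS. The 8 endothelial markers summed to 133 to 140 FPKM in control, 87.3 to 92.1 FPKM in LPS and 77.9 to 85.5 FPKM in LPS-MIC-1. Of the 7 tested, 0 were called in either step, and 2 (Kdr and Eng) were called lower in LPS-MIC-1 than in control. In LPS against control the 7 had a median difference of -0.62. Each was lower under the fold minimum, at an adjusted p in limma of 0.0175 or less. The part of all these markers in the members' values was not tested.

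The order of levels in muscle control was Jun, Jund, Junb, Fos, Egr1, Fosl2 and Myc, with Fosb, Fosl1 and Maff at or near 0, and Junb and Fos overlapped. In LPS it was Jun, Jund, Junb, Fos, Fosl2, Egr1, Maff and Myc, and the neighbours Fos and Fosl2, and Maff and Myc, overlapped. In LPS-MIC-1, Jun and Junb led without overlap, Jund and Maff overlapped below them, and Fos, Fosl2, Egr1 and Myc overlapped from neighbour to neighbour.

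Other genes of the pathway were read from fixed lists. In C2C12, 10.9% of all tested genes were called higher and 10.0% lower in LPS against control. In LPS-MIC-1 against LPS, 24.3% were called higher and 25.6% lower. Among 8 tested AP-1 partners and Maf genes in C2C12, 2 were called higher and 0 lower in LPS against control, with 1 lower at an unadjusted p under 0.05 in limma and a median of 0.30 against 0.00 over all genes. Atf3, a stress-induced partner of Jun, went from 119 ± 1.82 FPKM (SD, n = 3) to 505 ± 7.22 FPKM, a rise of 2.08 (SE 0.203, adjusted p = 4.23e-05). Atf4, a factor of the integrated stress response, went from 182 ± 5.34 to 609.5 ± 18.7 FPKM. Between LPS-MIC-1 and LPS, 0 were higher (0 at an unadjusted p under 0.05) and 5 lower, with a median of -1.96 against -0.05. Batf2, a basic leucine zipper partner of Jun, went from 1.94 ± 0.113 FPKM to values listed at 0.

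Of 18 other immediate-early genes tested in C2C12, 5 were higher and 2 (Egr2 and Btg2) lower in LPS against control, with a median of -0.09. The largest changes were those of Gadd45b, a stress gene that acts on MAP kinase signalling, from 10.7 ± 0.688 to 177 ± 5.24 FPKM, and of Ier3, from 239 ± 1.04 to 1869 ± 28.3 FPKM. LPS-MIC-1 had 3 higher and 11 lower than LPS, with a median of -1.23, or 1 higher and 11 lower of 16 without Cyr61 and Ctgf, which passed the filter only through LPS-MIC-1. Over all genes that did not pass through a single group, 18.5% were called higher and 27.3% lower in that comparison. Cyr61, a secreted matrix protein, went from 0.193 ± 0.195 to 163 ± 3.16 FPKM, and Egr2 from 7.42 ± 0.330 FPKM to values listed at 0. The 17 tested MAP kinases and ternary complex factors had 0 calls in LPS against control (6 higher and 4 lower at an unadjusted p under 0.05 in limma). LPS-MIC-1 had 1 higher and 10 lower than LPS, with a median of -1.07. Map3k8 (Tpl2), a kinase upstream of ERK, went from 7.85 ± 0.336 to 0.0899 ± 0.156 FPKM, and Map2k4, a kinase upstream of JNK, from 12.05 ± 0.349 to 0.688 ± 0.722 FPKM.

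Of 14 genes known as AP-1 targets, 10 were higher and 1 (Ccnd1) lower in C2C12 LPS against control, with a median of 3.78 against 0.00 over all genes, or 9 and 1 of 12 without Mmp3 and Mmp9, which passed the filter through a single group. Over all genes that did not pass that way, 10.8% were called higher and 10.8% lower. Ptgs2, the inducible cyclooxygenase, went from 15.9 ± 0.620 to 2684 ± 60.4 FPKM, a rise of 7.39 (SE 0.331, adjusted p = 6.71e-07). Il6, a cytokine gene, was listed at 0 in control and had 56.8 ± 3.63 FPKM in LPS. From LPS to LPS-MIC-1 the list divided, with 5 higher and 6 lower and a median of -0.07, or 4 and 5 of 12 without Mmp3 and Mmp9. The matching shares over all genes were 18.5% higher and 27.3% lower. Mmp3, a matrix metalloproteinase, went from 0.134 ± 0.202 to 175 ± 14.8 FPKM, while Spp1 (osteopontin) went from 18713 ± 201 to 279 ± 433 FPKM. These directions stand beside the marker change given above, which cannot be told apart from the treatment.

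Of 8 tested partners and relatives of Myc in C2C12, 3 were higher and 1 (Mxd4) lower in LPS against control, with a median of -0.15. The largest changes were those of Mxd1, a Max partner that opposes Myc, from 2.66 ± 0.168 to 36.7 ± 0.715 FPKM, and of Mlx, from 29.0 ± 1.81 to 82.7 ± 1.02 FPKM. In LPS-MIC-1 against LPS, 1 was higher and 5 lower, with a median of -1.24. Mycn, a paralog of Myc, went from 227 ± 1.83 to 2.39 ± 3.76 FPKM, and Mxd3 from 1.53 ± 0.630 to 26.3 ± 6.12 FPKM. In control, Mycn stood at 787 ± 10.1 FPKM, where Myc had 1.01 ± 0.0528 FPKM. Of 13 genes known as Myc targets, 2 were higher and 6 lower in LPS against control, with a median of -0.98. Odc1, an enzyme of polyamine synthesis, went from 130.1 ± 1.22 to 3832 ± 18.3 FPKM, and Srm, another enzyme of that pathway, from 214 ± 5.14 to 57.2 ± 0.723 FPKM. From LPS to LPS-MIC-1, 7 were higher and 1 lower, with a median of 1.28. Odc1, the one that was lower, had 192 ± 53.5 FPKM, and Nme1, a nucleoside diphosphate kinase, went from 40.7 ± 1.36 to 326 ± 43.3 FPKM.

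In muscle LPS against control, calls in these lists were few, as they were over all tested genes (0.654% higher and 0.591% lower). Of 6 AP-1 partners and Maf genes, 1 was higher and 1 lower. Atf3, the one that was higher, went from 0.410 ± 0.0813 to 0.951 ± 0.235 FPKM (adjusted p = 0.00941), and was tested only through its LPS-MIC-1 level. Of 15 other immediate-early genes, 2 were higher (Nr4a1 and Nr4a3) and 2 lower (Ier5 and Cyr61), with a median of -0.20. Ier5 went from 8.09 ± 0.547 to 2.87 ± 0.310 FPKM, and Nr4a3, an orphan nuclear receptor, from 0.213 ± 0.0513 to 0.745 ± 0.0329 FPKM. Nr4a3 too was tested only through LPS-MIC-1, and without LPS-MIC-1 replicate 3 it fell under the filter and 1 of 14 was higher. There were 0 calls among 15 MAP kinases and ternary complex factors, 9 AP-1 targets, 7 Myc partners and 13 Myc targets. At an unadjusted p under 0.05 in limma, these held 3 higher and 2 lower, 3 higher and 1 lower, 0 higher and 3 lower, and 3 higher and 2 lower in that order.

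In muscle LPS-MIC-1 against LPS, more of these genes were called, as were more of all tested genes (9.67% higher and 5.44% lower). Several passed the filter only through their LPS-MIC-1 level, and counts are also given without them. Over all genes that did not pass through a single group, 8.18% were called higher and 5.57% lower. Among the AP-1 partners and Maf genes, 2 were higher and 2 lower, with a median of 0.72 against -0.01 over all genes, or 1 higher and 2 lower of 5 without Atf3. As a description, Atf3 went from 0.951 ± 0.235 to 21.7 ± 2.06 FPKM. Mafk, a small Maf like Maff, went from 4.77 ± 0.215 to 44.5 ± 1.63 FPKM, a rise of 3.19 (adjusted p = 3.59e-09). Among the other immediate-early genes, 7 were higher and 1 (Klf4) lower, with a median of 0.53, or 6 and 1 of 14 without Nr4a3. Btg2, an antiproliferative gene, went from 2.16 ± 0.321 to 113 ± 2.79 FPKM, a rise of 5.65 (SE 0.0930, adjusted p = 1.61e-09), and Cyr61 from 5.93 ± 0.286 to 52.8 ± 1.43 FPKM.

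Of the 9 tested AP-1 targets in muscle, 6 were higher and 1 (Plau) lower, with a median of 1.96. Of the 6, 4 had passed the filter only through LPS-MIC-1, and the other 5 tested targets had 2 higher and 1 lower with a median of -0.66. As a description, Plaur, the urokinase receptor and one of those 4, went from 0.506 ± 0.0579 to 10.5 ± 0.481 FPKM. Without LPS-MIC-1 replicate 3, this list had 5 higher and 3 lower, with Spp1 lost and Ccnd1 and Vim added. Of 7 Myc partners, 3 were higher and 0 lower (1 lower at an unadjusted p under 0.05 in limma). Mnt, which competes with Myc for Max, went from 2.64 ± 0.368 to 8.86 ± 0.168 FPKM, and Max, the partner of both, from 11.4 ± 1.43 to 24.98 ± 3.05 FPKM. Of 13 Myc targets, 2 were higher and 0 lower (3 lower at an unadjusted p under 0.05 in limma), Eif4a1 from 49.5 ± 2.11 to 118 ± 6.45 FPKM and Srm from 9.70 ± 0.179 to 20.8 ± 0.573 FPKM. Among the MAP kinases and ternary complex factors, Elk4 was higher (0.630 ± 0.0102 to 2.97 ± 0.172 FPKM, tested only through LPS-MIC-1) and Elk3 lower (2.44 ± 0.259 to 1.17 ± 0.290 FPKM).

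In muscle LPS-MIC-1 against control, where 9.33% of all genes were higher and 6.12% lower, the AP-1 partners had 3 higher and 2 lower of 6, the other immediate-early genes 5 and 1 of 15, and the kinases and ternary complex factors 1 and 2 of 15. The AP-1 targets had 6 and 1 of 9, or 5 and 2 without LPS-MIC-1 replicate 3, and 2 and 1 of 5 without the genes tested through a single group. Over all genes left without that group of genes, the shares were 7.87% higher and 6.19% lower. The Myc partners had 1 and 0 of 7 (1 lower at an unadjusted p under 0.05 in limma), and the Myc targets 3 and 1 of 13. In C2C12 LPS-MIC-1 against control, with 21.1% of all genes higher and 22.1% lower, the numbers were 0 and 3 of 8 AP-1 partners (1 higher at an unadjusted p under 0.05 in limma), 5 and 7 of 18 immediate-early genes, and 1 and 5 of 17 kinases and ternary complex factors. They were 8 and 0 of 14 AP-1 targets (2 lower at an unadjusted p under 0.05 in limma), 1 and 4 of 8 Myc partners, and 3 and 1 of 13 Myc targets.

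Over the 9 libraries of an experiment, the genes whose log2(FPKM + 0.1) followed a member most closely were listed as a description, since the libraries fall into 3 groups and are not 9 independent samples. In C2C12, the closest to Fos were 2510009E07Rik (Pearson r = 0.99959) and Gng2, to Fosl1 the chemokine gene Ccl7 (r = 0.99892) and Slpi, to Jund Coq10b and the AP-1 target Plaur (r = 0.99891), and to Egr1 Tcp11l2 and Ckb. Fosb was followed by Papola and G3bp2, Fosl2 by Stk40 and Fndc3a, Junb by Etv1 and AW011738, Maff by Cda and Hs1bp3, and Myc by Rhob and Bdkrb1. In muscle, Jun was followed by Gadd45a (r = 0.9996) and D19Wsu162e, Junb by Gabarapl1 and the cell cycle inhibitor Cdkn1a (r = 0.9991), Maff by Fbxo30 and Dnajb9, Fosl2 by Myom1 and Plp2, and Myc by Notch4 and Fam123b.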

How the data were processed

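RNA-seq was made from 9 libraries labelled C2C12 and 9 of gastrocnemius, and the conditions were taken from the sample labels. Reads were quantified by the authors with kallisto, brought to gene level through tximport and deposited as FPKM. Build mm9 is named in the submitters' processing notes, and no genome of that build was used here. The authors' DESeq2 tables, with their own fold changes and p-values, were not used, nor were 9 numeric muscle columns without a name. Depth per library is not given in the sources used here. The limma package (version 3.58.1, under R 4.3.3) fitted log2(FPKM + 0.1) per experiment, as 3 group means over 9 libraries with trended eBayes variances, at the filter and thresholds given in the report. FPKM are no counts, hence the test on the log scale. The fit was tested on simulated data. Permutation tests (scipy 1.17.1) were exact and 2-sided. Alternatives tried were quantile normalization, median-ratio scaling, pseudocounts of 1 and 0.01, a mean FPKM over 5, no filter beyond a value above 0 in at least 3 libraries, variances without the trend, a fit of the 6 libraries of a comparison, a replicate block, an adjusted p under 0.05 at any fold, and each library left out in turn.

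The members, gene lists and tests were chosen with earlier results of these data known. The rule names all members, the 2 called genes of each list with the largest change in each comparison described by genes, the 2 markers per list with the highest means (of which the text gives only Lyz2 with values), and the 2 genes most like each called member. Other list genes, named beside counts of 5 or fewer or as relatives of a member, were picked once their values had been seen. The markers Cd68, Spi1 and Ly6g and the list gene Atf7 were not analysed here, and 2 genes that the rule names are not reported here. No sequences are shown, as no sequence tables were used.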

Additional observations from a re-analysis of the deposited data

Results flagged for a closer look

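The same contrast went in opposite directions in the 2 experiments, with the groups apart in each, for 3 members. Differences are on the log2(FPKM + 0.1) scale, and the difference between the experiments was not tested, as their tables were normalized apart. For Myc, LPS against control gave 3.59 in the libraries labelled C2C12 and -1.14 in muscle. The muscle difference came from means of 0.468 FPKM in LPS and 1.15 FPKM in control. With a pseudocount of 1 it was -0.55 and was not called. For Fosl2, LPS-MIC-1 against LPS gave -2.08 in C2C12 and 0.47 in muscle, the latter under the fold minimum. For Junb, LPS-MIC-1 against LPS gave -1.36 in C2C12 and 2.77 in muscle, and LPS-MIC-1 against control gave -0.44 and 2.72, the first of these under the fold minimum. In the C2C12 contrast of LPS against control, both groups held macrophage markers and lacked the defining markers of the labelled line. The C2C12 contrasts with LPS-MIC-1 hold the change from macrophage to myoblast markers, which cannot be told apart from the treatment.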

How the results depend on the processing

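Of 1011 combinations of a member's comparison and an alternative, 984 kept their direction and side of the threshold. The sign turned in 6, none of them called: Egr1 in C2C12 LPS against control with quantile normalization (-0.056), Junb in muscle LPS against control without control replicate 2 (0.0061, from -0.094 when other libraries were left out), Fos in muscle LPS-MIC-1 against LPS with quantile normalization (-0.063), without LPS replicate 2 (-0.07) and without LPS-MIC-1 replicate 3 (-0.73, up to 0.47 when other libraries were left out), and Egr1 in muscle LPS-MIC-1 against control without LPS-MIC-1 replicate 3 (-0.16, up to 0.57). In muscle LPS against control, the 1 member called higher became 0 with a pseudocount of 1 or a mean FPKM over 5 (3 members tested), 2 with a pseudocount of 0.01 or quantile normalization, 3 with an adjusted p under 0.05 and no fold minimum, and 1 to 2 when a library was left out (2 without LPS replicate 2, Fosl2 added). The 1 called lower became 0 with a pseudocount of 1 or a mean over 5, 2 with only the 6 libraries compared (Fos added, adjusted p = 0.00745), and 1 to 2 when a library was left out. With a mean over 5, those called higher in muscle LPS-MIC-1 became 2 against LPS (from 4) and 2 against control (from 5), as fewer members were tested. They were 5 and 6 with no filter, where all 10 were tested, and 6 and 6 with no fold minimum, and those lower against control were 0 to 1 when a library was left out. In C2C12 LPS against control, 2 were lower (from 0) with an adjusted p under 0.05 and no fold minimum. Junb in C2C12 LPS-MIC-1 against control was called lower (-1.02) with quantile normalization. Median-ratio scaling left the values almost as they were, since its factor was the same in all 9 libraries of an experiment. The 1011 combinations include this scaling, which could hardly change a result. They also include fits without a library outside the comparison, which kept the difference and could change only its adjusted p. The other filters, the variances without the trend, the fit of the 6 libraries compared and the replicate block likewise kept the difference. Dropping the fold minimum changed only the threshold. None of these settings that kept the difference could turn a sign.

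Over all genes, muscle LPS against control had 62 higher and 56 lower, but 37 and 34 with a pseudocount of 1, 31 and 26 with a mean over 5, and 85 and 88 with no filter. Muscle LPS-MIC-1 against LPS had 916 and 515, but 730 and 275, 452 and 204, and 1360 and 798 in that order, and 768 and 680 with quantile normalization, which shifted the median by -0.114. Against control it had 884 and 580, but 728 and 341, 462 and 215, and 1325 and 915, and the quantile shift was -0.116. C2C12 LPS-MIC-1 against control had 2300 and 2408, but 3449 and 2583 with no filter and 1533 and 1867 with a mean over 5. With no filter, the C2C12 medians shifted by 0.234 against LPS and by 0.248 against control.

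Correlations over genes of deviations from the group means lay between -0.0757 and 0.0823 for libraries that share a replicate number. For libraries with different numbers they lay between -0.0910 and 0.121. In muscle LPS and LPS-MIC-1 the same-number pairs were all positive (0.0282 to 0.0823), and elsewhere their signs were mixed. Values this small do not show a pairing by number, and they cannot exclude one. A replicate block changed no call of a member, with 5, 2 and 4 members higher in the C2C12 comparisons and 1, 4 and 5 in muscle. It moved the C2C12 LPS against control calls over all genes from 1182 to 1071 higher. Depth, unknown here, limits the values near 0 of Fosb, Fosl1 and Maff in muscle.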
